A study of Mus musculus with 6 samples.

Results

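The genes described here are the protein-coding mouse genes for the receptors of GABA, glutamate and glycine and for the glutamate decarboxylases that make GABA. They were chosen by name from the authors' annotated tables (names starting with Gabr, Gabbr, Gria, Grik, Grin, Grm or Glra and a subunit number or letter, plus Gad1 and Gad2), which gave 44 of the 47643 genes counted. They comprise 2 GAD enzymes, 16 GABA-A subunits, 2 GABA-B subunits, 4 AMPA, 5 kainate and 6 NMDA subunits, 7 metabotropic glutamate receptors and 2 glycine receptor subunits. RNA was sequenced from pancreatic islets of 3 transgenic (TG) samples, which carry a miR-203 transgene specific to beta cells, and of 3 wild-type (WT) samples. All mice were labelled male, were 10 weeks of age and had been fasted for 12 h. The sources used here name neither the promoter of the transgene nor how many mice stand behind a sample or whether samples came from separate mice, and p-values therefore measure only the spread among these 6 libraries, part of which may be technical.

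Beta cells are among the few cells outside the brain that make large amounts of GABA, which glutamate decarboxylase forms from glutamate in a single step. GABA opens chloride channels built from GABA-A subunits and acts more slowly through the GABA-B receptor, a G protein-coupled pair of subunits. Glutamate opens the AMPA, kainate and NMDA channels, which are named after the compounds that activate them, and glycine opens chloride channels of its own. In islets these receptors are known from the endocrine cells themselves as well as from nerve endings.

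Libraries held 21615905 to 27482339 counts in TG and 20176456 to 24631199 counts in WT, of which the 44 genes took 0.0363% to 0.0706% in TG and 0.0350% to 0.0531% in WT. TG 1, TG 2, WT 1 and WT 2 were deposited in 1 table and TG 3 and WT 3 in a second table. The second table's libraries go against the male label, with 27240 Xist counts in TG 3 and 25145 in WT 3, against at most 12 in TG 1 and TG 2 and at most 13 in WT 1 and WT 2. The table was a term of the fit, and values of the first table alone are given where they matter. The Mir203 locus had 170 counts in TG 1, 164 in TG 2 and 150 in TG 3, against 39 counts in WT 1, 0 in WT 2 and 0 in WT 3, so the library labelled WT 1 also carried reads of it. Over 13065 genes the library labelled TG 2 was closer to WT 1 and WT 2 (chi-square per degree of freedom 31.6 and 61.0) than to TG 1 and TG 3 (335 and 407), so results are also given without it where that changes them.

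The transgene's product and its possible pairing sites in these genes are shown first, because the seed of a microRNA, bases 2 to 8 from its 5′ end, is what it mainly pairs with in 3′ untranslated regions. The mature microRNA lies at chr12:112130927-112130948 of GRCm38, plus strand, and is given with the seed in capitals, followed by sites of genes whose values are described below, written as the sense strand of the transcript with the 7 bases that complement the seed (CATTTCA) in capitals.
mmu-miR-203-3p: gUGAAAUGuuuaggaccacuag
Gad1, chr2:70600911-70600938: ctcttaaagaatatttgtcaCATTTCAc
Gabbr1, chr17:37074978-37075005: caagggttggatgggcctatCATTTCAc
Gria2 site 1, chr3:80683815-80683842: tggctgcttagctatataccCATTTCAc
Gria2 site 2, chr3:80682722-80682749: gtttacatgcacctaaaatcCATTTCAa
Grik4, chr9:42518268-42518295: tggaccttggtttgtctccaCATTTCAt

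The microRNA sequence is RefSeq's (GRCm38.p6), and the sites are from GENCODE M21 transcripts (GRCm38), taking for each gene the protein-coding transcript with the longest 3′ untranslated region and searching its sense strand only. Gad1 and Gabbr1 lie on the plus strand and Gria2 and Grik4 on the minus strand. The Gad1 match starts 135 bases after the stop codon of a 1218-base untranslated region. The second Gria2 site is followed by an A, which makes an 8-base match. Among the 44 genes 14 (31.8%) held at least 1 such match and 4 (9.09%) an 8-base match, against 17.3% and 5.06% of the 13851 tested genes with an annotated 3′ untranslated region. Among the 21 of the 44 that were tested, the like comparison, 6 (28.6%) held a match and 1 (4.76%) an 8-base match, so the 8-base share was not above that of all tested genes. The untranslated regions of the 44 genes were longer, with a median of 1959 bases against 1181 bases over all tested genes. Per 10 kb of untranslated region there were 1.875 matches in the 44 genes and 2.03 in the 21 tested, against 1.32 over all tested genes. A match is a string of letters and not a shown site of binding.

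Of the 44 genes, 21 had enough counts to be tested, and the AMPA subunits Gria2 and Gria3 were higher in every TG library than in every WT library, while Gad1 and the glycine receptor subunits Glra1 and Glra4 were lower in every TG library. No gene passed the threshold, a Benjamini-Hochberg adjusted p under 0.05 in edgeR's quasi-likelihood test, among the 21 or among all 16072 tested (0% called in either direction, smallest adjusted p 0.199). At an unadjusted p under 0.05 edgeR had 5 of the 21 higher in TG (23.8%) and 3 lower (14.3%), against 9.32% and 4.81% of all genes tested (14.1% in either direction). Limma-voom also had 5 higher and 3 lower, against 8.48% and 5.43% of all genes (13.9% in either direction). The fitted value was higher in TG for 15 of the 21, against 48.1% of all genes, with a median log2 fold change (TG over WT) of 0.24 against -0.01. Against the WT mean of the same table, the median of the 21 stood at -0.08 log2 units in TG 1, 0.12 in TG 2 and 0.62 in TG 3. Over the genes tested in each setting, the fitted median was 0.033 in the first table alone (22 genes), 0.032 without TG 3 (22 genes) and 0.035 without WT 3 (23 genes). Leaving out TG 3 or WT 3 leaves the genotype difference to the first table's libraries, so these settings are not separate. TG 3 was measured against WT 3 alone, so the shares of TG 3 and WT 3 in the median cannot be told apart. Compared within each table, 7 of the 21 were higher in all TG than in all WT libraries and 5 were lower, against 13.0% and 13.4% of all genes. Across the tables, 5 of the 21 had all 3 TG libraries above all 3 WT libraries and 4 had them below, against 6.96% and 6.42% of all genes. A gene could pass the low-count filter through 1 genotype alone, as Glra1 and Glra4 did through WT. These counts therefore describe the 21 tested genes and not all 44. DESeq2 called Gria2 and Gria3 higher among 25 of these genes with an adjusted p, against 3.73% of all genes called higher and 0.727% called lower. At an unadjusted p under 0.05 DESeq2 had 4 of the 44 genes higher and 3 lower, against 5.83% and 2.45% of all genes (8.28% in either direction). In edgeR with no low-count filter Gria2, Gria3 and Grik4 were called higher and Gad1 and Glra1 lower, against 4.37% and 1.25% of all genes, but with bias-adjusted deviances, an alternative added after seeing the data, 0 of the 44 and 0 of all genes were called there. Without TG 2, edgeR called 5 of 23 tested genes higher, Gabrq, Gria2, Gria3 and Grik4 among them, and Gad1 and Glra1 lower, where 8.82% of all genes were called higher and 4.39% lower. Gabrq, with at most 5 counts in any WT library, passed the low-count filter of that fit only through its TG levels. Its being tested there thus depended on high TG values.

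**Figure D1:**
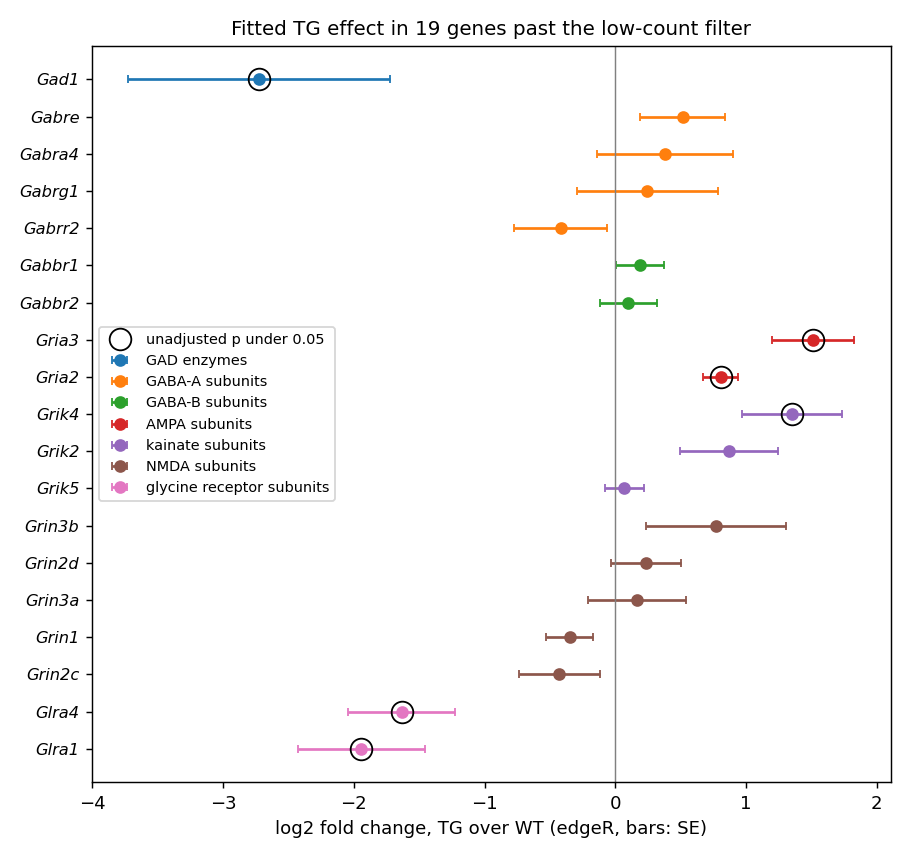
Log2 fold change of TG over WT (x axis, edgeR fit with the table as a term, bars are SE) for 19 of the tested genes, coloured by role, with a ring around the 6 whose unadjusted p was under 0.05. Gad1, Glra1 and Glra4 sit far to the left, and Gria3 and Grik4 far to the right.

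Gad1, the glutamate decarboxylase that mouse beta cells mainly express, had the widest difference of the 21 tested genes. Gad1 (ENSMUSG00000070880, chromosome 2, 70553072 to 70602014, plus strand) measured 3.55 CPM in TG 1, 30.6 in TG 2 and 1.58 in TG 3, against 59.5 CPM in WT 1, 53.4 in WT 2 and 70.0 in WT 3, where CPM stands for counts relative to the library total after TMM scaling. The genotypes did not overlap, but TG 2 stood apart, far above the other TG libraries. Mean levels were 11.9 ± 16.2 CPM for TG and 61.0 ± 8.39 CPM for WT (SD, n = 3 each). On the log2 scale Gad1 differed by -2.72 (SE 1.0), 0.151 of the WT level, with an unadjusted p of 0.0302 and an adjusted p of 0.303 in edgeR. It was -4.56 without TG 2 (adjusted p = 0.00105 in edgeR) and -1.73 in the first table alone (0.966), and over the alternatives the adjusted p ran from 1.25e-32 to 0.966, the lowest from edgeR without the low-count filter. With bias-adjusted deviances that same unfiltered edgeR fit gave Gad1 an adjusted p of 0.337.

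Gad2, the isoform that anchors to synaptic vesicles in neurons, was close to undetected in these libraries. It had 4 counts in TG 1, 1 in TG 2 and 1 in TG 3, against 7 counts in WT 1, 1 in WT 2 and 2 in WT 3, and it exceeded 3 counts, the upper limit for a true level when 0 counts are seen, in TG 1 and WT 1 only. Per kilobase of gene model, Gad1 thus made up 95.1% to 99.8% of the GAD transcripts in TG libraries and 99.2% to 99.9% in WT libraries.

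The 10 beta-cell markers, among them the insulins, Mafa and Slc2a2, were mostly lower as well, and for them too TG 2 lay nearest to WT. Relative to the WT mean of the same table, the median marker stood at -2.31 log2 units in TG 1, -0.40 in TG 2 and -1.26 in TG 3, and Gad1 at -3.96 in TG 1, -0.88 in TG 2 and -5.39 in TG 3 (with 0.1 CPM added to each value). Fitted values were below 0 for 9 markers and above 0 for Nkx6-1, with 0 past the threshold and 4 lower markers under the unadjusted p of 0.05 in edgeR, where 4.81% of all genes were lower. Their summed level was 54720 to 224372 CPM in TG and 117163 to 238368 CPM in WT, and none was at 0. In bulk islets fewer cells of a type and less RNA per cell cannot be told apart, and the part of the beta-cell markers in the Gad1 difference was not tested.

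Of the 4 AMPA subunits, which form fast glutamate-gated channels, 2 were tested, and Gria2 and Gria3 had higher levels in every TG library but did not pass the adjusted threshold in edgeR. Gria2, the subunit whose edited form makes these channels nearly impermeable to calcium (ENSMUSG00000033981, chromosome 3, 80681450 to 80802835, minus strand), measured 49.5 CPM in TG 1, 49.7 in TG 2 and 53.5 in TG 3, against 28.6 CPM in WT 1, 31.9 in WT 2 and 27.0 in WT 3. The genotypes did not overlap, and unlike Gad1 the gene was as high in TG 2 as in TG 1. Its log2 fold change was 0.81 (SE 0.13), 1.75 times the WT level, with an adjusted p of 0.199 in edgeR, 0.000343 in DESeq2 and 0.00989 in edgeR without TG 2. In the first table alone the log2 fold change was 0.72 (adjusted p = 0.914 in edgeR), and the adjusted p ran from 0.000343 to 0.924 over the alternatives.

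Gria3, a further pore-forming AMPA subunit (ENSMUSG00000001986, chromosome X, 41400854 to 41678601, plus strand), measured 89.3 CPM in TG 1, 38.8 in TG 2 and 69.8 in TG 3, against 20.4 CPM in WT 1, 27.3 in WT 2 and 21.5 in WT 3. TG 2 was the lowest TG library and still above every WT library. Mean levels were 65.9 ± 25.5 CPM for TG and 23.1 ± 3.69 CPM for WT (SD, n = 3 each), a log2 fold change of 1.51 (SE 0.31), or 2.86 times the WT level. The adjusted p was 0.199 in edgeR, 0.000298 in DESeq2 and 0.00152 in edgeR without TG 2, and it ran from 1.07e-12 (edgeR without the low-count filter) to 0.924 over the alternatives. With bias-adjusted deviances the unfiltered edgeR fit gave an adjusted p of 0.157. Gria3 held 0 seed matches and Gria2 held 2. Exons of both genes overlap an annotated miRNA gene on the same strand.

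Within a library, the Gria3 to Gria2 ratio per kilobase was 2.85 in TG 1, 1.23 in TG 2 and 2.06 in TG 3, against 1.13 in WT 1, 1.35 in WT 2 and 1.26 in WT 3. TG 1 and TG 3 lay above the WT range and TG 2 inside it. The other AMPA subunits were hardly detected. Gria1 had 8 counts in TG 1, 0 in TG 2 and 1 in TG 3, against 0 counts in WT 1, 1 in WT 2 and 0 in WT 3, and Gria4 at most 2 counts in any library.

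AMPA receptors are also known from alpha cells, whose 12 markers were examined beside them. Relative to the WT mean of the same table, the median alpha-cell marker stood at 0.85 log2 units in TG 1, 0.11 in TG 2 and 0.20 in TG 3. On that scale Gria3 stood at 1.90 in TG 1, 0.70 in TG 2 and 1.69 in TG 3, and Gria2 at 0.71 in TG 1, 0.72 in TG 2 and 0.98 in TG 3. The summed alpha-cell level, mostly glucagon, was 26190 to 51450 CPM in TG and 20807 to 29430 CPM in WT. In the second table that sum was 26190 CPM for TG 3 and 27286 CPM for WT 3, of which glucagon made up 20776 CPM and 24160 CPM. Fitted values were above 0 for 10 of the 11 alpha-cell markers tested and below 0 for Slc7a2, with 0 past the threshold in edgeR and 5 under the unadjusted p of 0.05, Slc7a2 among them, and none was at 0 in every library. Of all genes, 14.1% were under that p in either direction. The part of these cells in the Gria2 and Gria3 values was not tested.

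**Figure D2:**
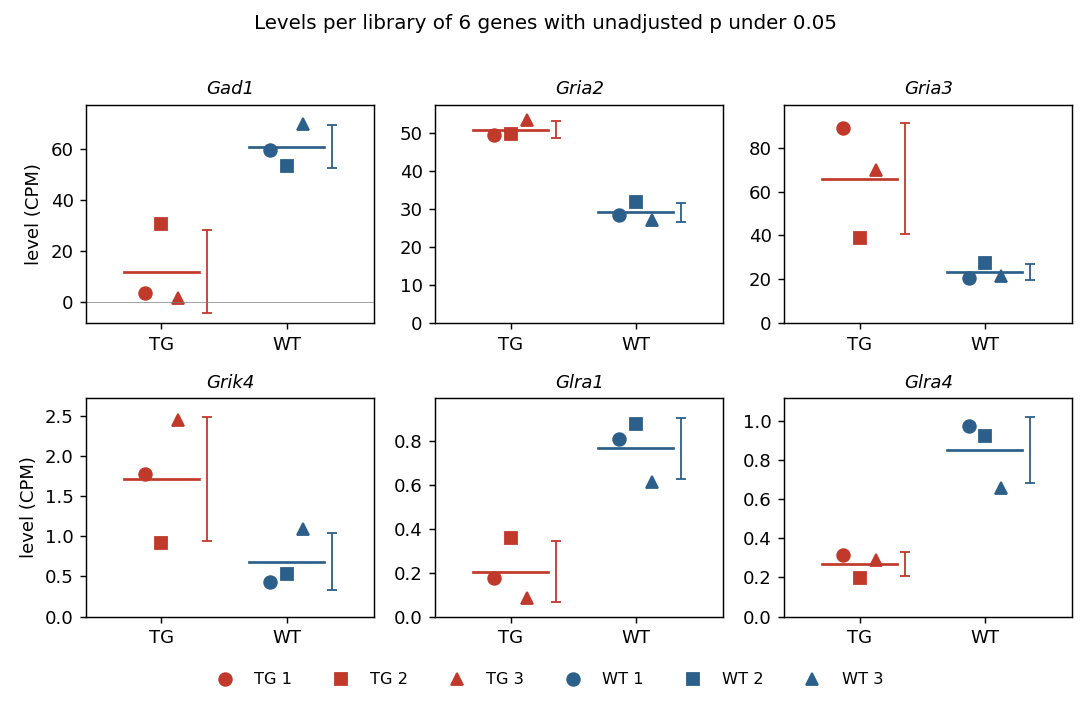
Level in CPM (y axis) in each TG and WT library for 6 genes with an unadjusted p under 0.05, where a horizontal line is the mean and the bar beside it 1 SD (n = 3 each). In every panel except Grik4 the TG and WT libraries do not overlap, and TG 2 is the TG library nearest to WT in Gad1, Gria3, Grik4 and Glra1.

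Among the GABA-A subunits no difference passed the adjusted threshold in edgeR with all libraries. Gabrr2, a rho subunit, which can form channels without other subunit classes, measured 0.522 CPM in TG 1, 0.516 in TG 2 and 0.374 in TG 3, against 0.702 CPM in WT 1, 0.660 in WT 2 and 0.525 in WT 3, with 9 to 15 counts in TG and 12 to 15 in WT. The genotypes were close but did not overlap, and the log2 fold change of -0.42 (SE 0.36) had an unadjusted p of 0.280 in edgeR. The tested subunits Gabre, Gabra4 and Gabrg1 had log2 fold changes of 0.52, 0.38 and 0.25, each with an adjusted p over 0.5 in edgeR. Another 10 GABA-A genes had between 2 and 58 counts over all 6 libraries and were not tested. Of these, Gabrq had 32 counts in TG 1, 4 in TG 2 and 12 in TG 3, against 4 counts in WT 1, 5 in WT 2 and 1 in WT 3. Gabrb2 had 10 counts in TG 1 and 0 in every other library. Gabra3, an alpha subunit, had at most 4 counts in any library.

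The GABA-B receptor, which needs both of its subunits to reach the surface and signal, was abundant and showed no difference that passed the test. Gabbr2 (chromosome 4, 46662305 to 46991873) measured 77.2 CPM in TG 1, 96.5 in TG 2 and 171 in TG 3, against 104 CPM in WT 1, 96.7 in WT 2 and 104 in WT 3. TG 3 was the highest library and TG 1 the lowest, so the TG range enclosed the WT range. Its log2 fold change was 0.10 (SE 0.22, adjusted p = 0.868 in edgeR), and it was below 0 in the first table alone (-0.20), without TG 3 (-0.20) and without WT 3 (-0.21). These settings are not separate, because without TG 3 or WT 3 the genotype difference rests on the first table's libraries. Gabbr1, which binds GABA (chromosome 17, 37045966 to 37075067), measured 38.0 CPM in TG 1, 49.8 in TG 2 and 75.3 in TG 3, against 37.5 CPM in WT 1, 48.0 in WT 2 and 53.4 in WT 3. Its log2 fold change was 0.19 (SE 0.18, adjusted p = 0.670 in edgeR). Per kilobase, the ratio of Gabbr2 to Gabbr1 was 2.36 in TG 1, 2.25 in TG 2 and 2.64 in TG 3, against 3.21 in WT 1, 2.34 in WT 2 and 2.27 in WT 3, with overlapping ranges.

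Of the kainate subunits, Grik5 was abundant and differed between the tables more than between the genotypes. This subunit, which forms channels only together with Grik1, Grik2 or Grik3 products, measured 39.0 CPM in TG 1, 42.5 in TG 2 and 133 in TG 3, against 44.8 CPM in WT 1, 41.7 in WT 2 and 102 in WT 3. The second table held the high libraries of both genotypes. Grik5 had a log2 fold change of 0.07 (SE 0.15, adjusted p = 0.862 in edgeR), and the value was below 0 in the first table alone (-0.085). Its partners had far fewer counts, with Grik1 at 0 to 2 counts and Grik3 at 0 to 7 counts per library. Grik2, the most abundant of them, had 27 to 40 counts in TG libraries and 12 to 17 in WT libraries.

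Grik4, which like Grik5 needs a partner subunit, measured 1.77 CPM in TG 1, 0.913 in TG 2 and 2.45 in TG 3, against 0.432 CPM in WT 1, 0.528 in WT 2 and 1.09 in WT 3. TG 2 lay below WT 3, but within each table TG was above WT. The log2 fold change of Grik4 was 1.35 (SE 0.38), with an adjusted p of 0.238 in edgeR and a range of 0.0403 (without TG 2) to 0.924 over the alternatives. Grik2, which can form channels alone, averaged 1.26 ± 0.348 CPM for TG and 0.676 ± 0.131 CPM for WT (SD, n = 3 each), with a log2 fold change of 0.87 (SE 0.38, adjusted p = 0.361 in edgeR). Exons of Grik4 overlap a small annotated RNA gene on the same strand.

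NMDA receptors combine the obligatory subunit Grin1 with Grin2 or Grin3 products, and Grin1 and Grin2c had the highest levels per length. Grin1 measured 20.5 CPM in TG 1, 13.9 in TG 2 and 35.1 in TG 3, against 20.9 CPM in WT 1, 20.8 in WT 2 and 49.4 in WT 3. As with Grik5 the second table held the high libraries, and each TG library lay below the WT libraries of its table, TG 1 by little. Grin1 had a log2 fold change of -0.35 (SE 0.18) with an adjusted p of 0.417 in edgeR. Reads of Grin1 and of its annotated antisense gene cannot be told apart without a strand setting.

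Grin2c measured 4.52 CPM in TG 1, 9.01 in TG 2 and 9.63 in TG 3, against 10.4 CPM in WT 1, 6.95 in WT 2 and 14.3 in WT 3. The genotypes overlapped, with a log2 fold change of -0.43 (SE 0.31, adjusted p = 0.566 in edgeR). Grin2d, Grin3b and Grin3a had log2 fold changes of 0.24, 0.77 and 0.16, none with an unadjusted p under 0.05 in edgeR, and Grin3b shares exon positions with Tmem259 on the opposite strand. Grin2a had 0 to 2 counts per library.

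None of the 7 metabotropic glutamate receptors, the G protein-coupled glutamate receptors, had enough counts to be tested. Grm3 had 2, 2 and 1 counts in the TG libraries and 1, 6 and 4 in the WT libraries, and Grm2, Grm4, Grm6, Grm7 and Grm8 had at most 6 counts in any library. Such counts are too few to tell the genotypes apart at this depth.

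The glycine receptor subunits Glra1 and Glra4, which form chloride channels, were rare transcripts that were lower in every TG library. Glra1 (ENSMUSG00000000263, chromosome 11, 55514238 to 55608198, minus strand) had 5 counts in TG 1, 9 in TG 2 and 2 in TG 3, against 15 counts in WT 1, 20 in WT 2 and 14 in WT 3. Scaled to CPM this was 0.0830 to 0.357 for TG and 0.613 to 0.880 for WT, so the genotypes did not overlap. Both Glra1 and Glra4 had at most 9 counts in any TG library and passed the low-count filter only through their WT levels. Their being tested thus depended on high WT values, and neither was tested under the stricter filter. The log2 fold change of Glra1 was -1.94 (SE 0.49), 0.260 of the WT level, with an adjusted p of 0.216 in edgeR and a range of 0.0288 (without the low-count filter) to 0.924 over the alternatives, with 0.0339 when TG 2 was left out. With bias-adjusted deviances the unfiltered edgeR fit gave Glra1 an adjusted p of 0.216. Glra1 shares exon positions with an annotated antisense gene.

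Glra4 (ENSMUSG00000018595, chromosome X, 136757674 to 136780141, minus strand) had 9 counts in TG 1, 5 in TG 2 and 7 in TG 3, against 18 counts in WT 1, 21 in WT 2 and 15 in WT 3. TG 2 was the lowest library here, in contrast to Gad1, Gria3 and Glra1, where it was the TG library nearest to WT. Glra4 had a log2 fold change of -1.63 (SE 0.41, adjusted p = 0.217 in edgeR, range 0.0615 to 0.924). The beta subunit Glrb, which anchors glycine receptors and is not among the 44 genes, measured 26.4 CPM in TG 1, 48.0 in TG 2 and 19.7 in TG 3, against 48.7 CPM in WT 1, 41.5 in WT 2 and 25.9 in WT 3, with overlapping genotypes (adjusted p = 0.568 in edgeR).

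**Figure D3:**
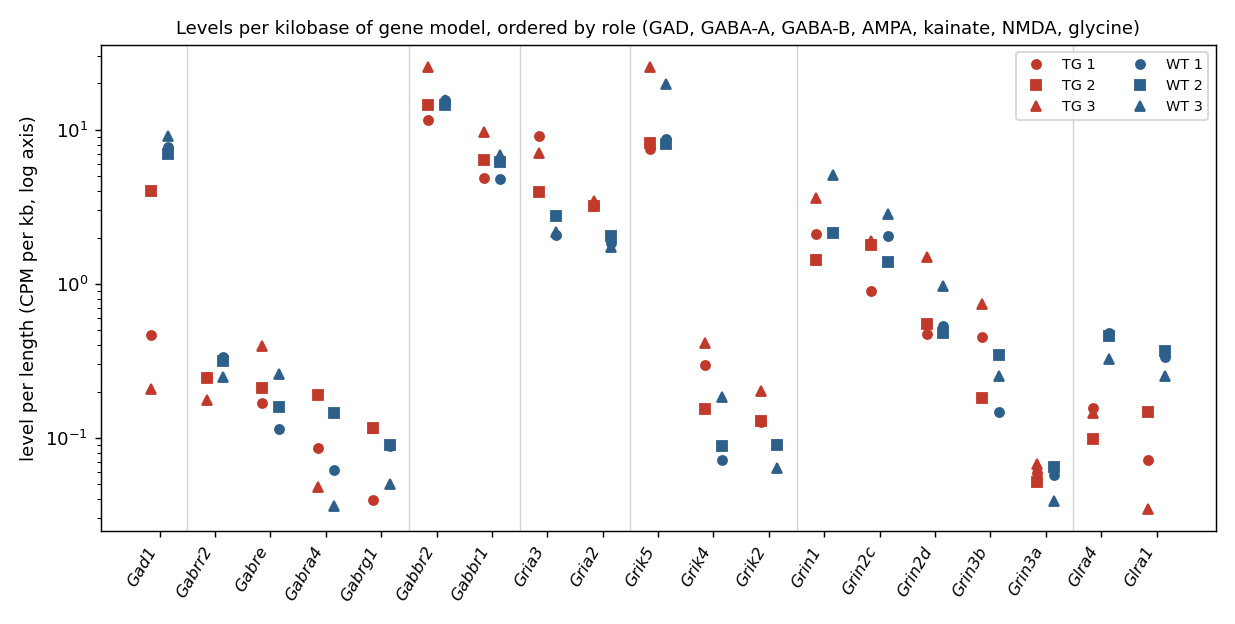
Level per length in CPM per kilobase of gene model (y axis, log scale) of 19 tested genes in each TG and WT library, ordered by role from GAD to glycine receptor. Gabbr2, Grik5 and Gabbr1 lie high in both genotypes, and TG 3 and WT 3 exceed the other libraries in Grik5 and Grin1.

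Ranked by CPM per kilobase in WT, abundant genes were Gabbr2 (15.2 ± 0.627), Grik5 (12.2 ± 6.59), Gad1 (7.98 ± 1.10), Gabbr1 (5.96 ± 1.04), Grin1 (3.13 ± 1.7), Gria3 (2.34 ± 0.374) and Grin2c (2.09 ± 0.732), each as mean and SD of 3 libraries. Gabbr2 stood above Gad1 by more than the spread, whereas Gad1 and Gabbr1 differed by less than the sum of their SDs. In TG, Gad1 averaged 1.56 ± 2.13 CPM per kb, below Gabbr2 (17.2 ± 7.43), Grik5 (13.8 ± 10.3), Gabbr1 (7.01 ± 2.46), Gria3 (6.69 ± 2.58), Gria2 (3.27 ± 0.143) and Grin1 (2.39 ± 1.12). The SD of Gad1 in TG exceeds its mean, TG 2 being the high library.

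Both the genes with and those without a seed match included higher and lower ones. Of the 6 tested genes with a match, 5 had a higher and 1 a lower fitted value in TG, with a median log2 fold change of 0.38 and a range of -2.72 (Gad1) to 1.35 (Grik4). Of the 15 without one, 10 were higher and 5 lower, with a median of 0.24 and with Glra1 lowest at -1.94. Among the matched genes Gad1 was the single one below 0, and Glra1 and Glra4, the other strongly lower genes, held 0 matches in untranslated regions of 575 and 22 bases.

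**Figure D4:**
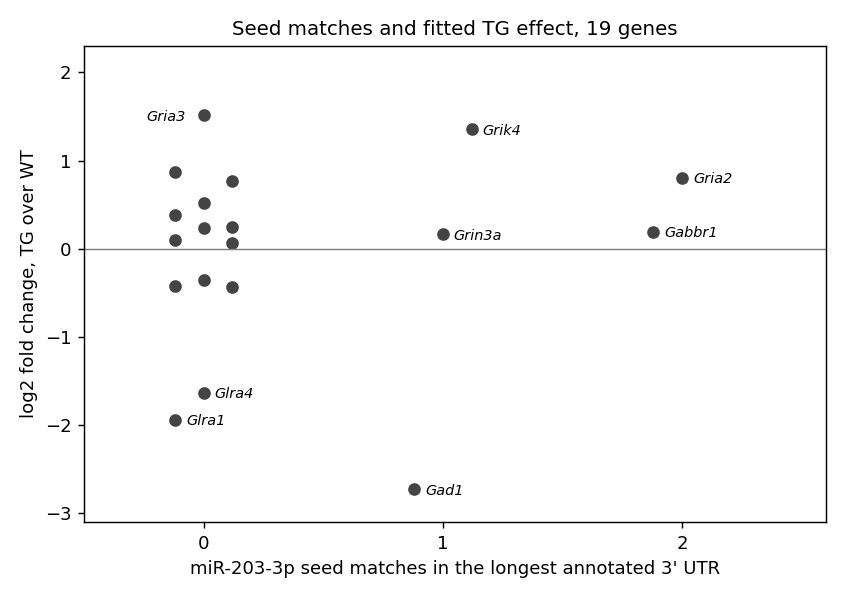
Log2 fold change of TG over WT (y axis) of 19 tested genes by the number of miR-203-3p seed matches in the longest annotated 3′ untranslated region (x axis, points offset sideways to keep them apart). Gad1 is the single gene below 0 among the 5 shown with a match, while Gabbr1 and Gria2, with 2 matches each, lie above 0.

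The other genes of these pathways were taken from 4 lists. Of the genes for GABA synthesis, transport and breakdown 14 were found and 9 tested, of which 5 had fitted values above 0 and 4 below, with none reaching an unadjusted p of 0.05 in edgeR and with a median log2 fold change of 0.02. Of the 14 tested partners of GABA and glycine receptors and chloride transporters, 4 were higher and 1 was lower under that p, and their median was 0.10. Of the 16 tested genes of glutamate and glycine transport and metabolism 3 were higher, with a median of 0.03. Of the 28 tested auxiliary subunits and scaffolds of glutamate receptors 3 were higher and 1 lower, with a median of 0.04. The adjusted threshold was passed by 0 of them in edgeR, and the shares of all genes at the unadjusted p are those given above (9.32% and 4.81%).

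Among the receptor partners, Kctd12b, a cytosolic protein of the family that binds GABA-B receptors, measured 221 CPM in TG 1, 116 in TG 2 and 141 in TG 3, against 81.1 CPM in WT 1, 54.2 in WT 2 and 18.8 in WT 3. The genotypes did not overlap, and its log2 fold change was 1.83 (SE 0.41, adjusted p = 0.199 in edgeR). Its relative Kctd12 measured 52.9 CPM in TG 1, 20.8 in TG 2 and 50.2 in TG 3, against 22.2 CPM in WT 1, 22.1 in WT 2 and 16.9 in WT 3, with TG 2 inside the WT range. For Slc12a5, a chloride exporter of neurons, the log2 fold change was 0.58 (SE 0.20), and for Plcl1, which binds GABA-A receptors, it was 1.34 (SE 0.53). For Gabarapl1, a relative of the GABA-A receptor-associated protein that also works in autophagy, it was -0.34 (SE 0.14). The adjusted p of these last 4 genes lay between 0.275 and 0.351 in edgeR.

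Among the auxiliary subunits, Cacng3, which escorts AMPA receptors to the surface, measured 3.44 CPM in TG 1, 1.75 in TG 2 and 1.87 in TG 3, against 0.324 CPM in WT 1, 0 in WT 2 and 0.306 in WT 3. Every TG library was far above every WT library, which held 6, 0 and 7 counts, and the adjusted p was 0.199 in edgeR. Cacng3 passed the low-count filter only through its TG levels, so its being tested depended on high TG values. For the scaffold Dlg2 the log2 fold change was 0.79 (SE 0.25), and for Shank2 it was 0.93 (SE 0.35). Grip1, which binds the tails of AMPA subunits, measured 3.51 CPM in TG 1, 10.9 in TG 2 and 5.02 in TG 3, against 13.8 CPM in WT 1, 11.3 in WT 2 and 19.3 in WT 3, a log2 fold change of -1.18 (SE 0.45, adjusted p = 0.319 in edgeR).

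Of the transport and metabolism genes, Gldc, the glycine-cleaving enzyme, measured 5.63 CPM in TG 1, 1.27 in TG 2 and 5.52 in TG 3, against 0.972 CPM in WT 1, 1.06 in WT 2 and 1.09 in WT 3. TG 1 and TG 3 were high and TG 2 lay just above the WT range. Slc1a2, a glutamate transporter known from astrocytes, measured 3.51 CPM in TG 1, 1.63 in TG 2 and 1.25 in TG 3, against 0.594 CPM in WT 1, 0 in WT 2 and 0.263 in WT 3. With 11, 0 and 6 counts in the WT libraries, Slc1a2 too passed the low-count filter only through its TG levels. For Slc1a5, a carrier of neutral amino acids, the log2 fold change was 0.80 (SE 0.27). The adjusted p of these 3 genes lay between 0.238 and 0.274 in edgeR.

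Markers of nerve and other cells that could carry these receptors differed between the libraries too. The 14 neuron markers, several of which endocrine cells also express, summed to 448 to 624 CPM in TG and 447 to 534 CPM in WT, and their median stood 1.38 log2 units above WT in TG 1, 0.04 in TG 2 and 0.43 in TG 3. Fitted values were above 0 for 9 of the 12 tested and below 0 for 3, where 48.1% of all genes were above 0. Under the unadjusted p of 0.05, 2 were higher (Phox2a and Stmn2) and 1 lower (Tubb3), with 0 past the threshold in edgeR. Of the 14, Dbh alone had at most 3 counts in every library. The 8 Schwann-cell and glial markers summed to 27.7 to 57.9 CPM in TG and 18.9 to 31.7 CPM in WT, with 6 of 7 tested having fitted values above 0 and none at 0 in every library. The 8 delta-cell and PP-cell markers all had fitted values above 0, summing to 13539 to 36760 CPM in TG and 8453 to 9731 CPM in WT. Duct-cell markers summed to 1939 to 2121 CPM in TG and 1145 to 1533 CPM in WT, with 9 of 9 fitted values above 0, and acinar-cell markers to 266 to 4570 CPM in TG and 120 to 6471 CPM in WT, lowest in the second table. The duct-cell sum came mostly from Krt7, Krt8, Epcam and Spp1. Cftr had at most 6 counts in any library, and Sox9 and Krt19 overlapped between the genotypes. Endothelial markers summed to 321 to 583 CPM in TG and 276 to 434 CPM in WT, stellate-cell and fibroblast markers to 34.5 to 182 CPM in TG and 26.2 to 79.8 CPM in WT, and myeloid and lymphoid markers to 30.0 to 50.3 CPM in TG and 33.2 to 106 CPM in WT. At an unadjusted p under 0.05 in edgeR, 5 of 7 Schwann-cell and glial and 5 of 8 delta-cell and PP-cell markers were higher. So were 4 of 9 duct-cell, 4 of 10 stellate-cell and fibroblast, 1 of 10 endothelial and 0 of 8 acinar-cell markers. Of 6 myeloid and lymphoid markers 2 were lower, and 0 markers of these lists passed the adjusted threshold. The shares of all genes are those given above (9.32% and 4.81%). A marker could pass the low-count filter through TG alone, as Cdh19 did with 4 to 5 counts in the WT libraries. These counts therefore describe the tested markers only. The part of these cells in the receptor levels was not tested.

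**Figure D5:**
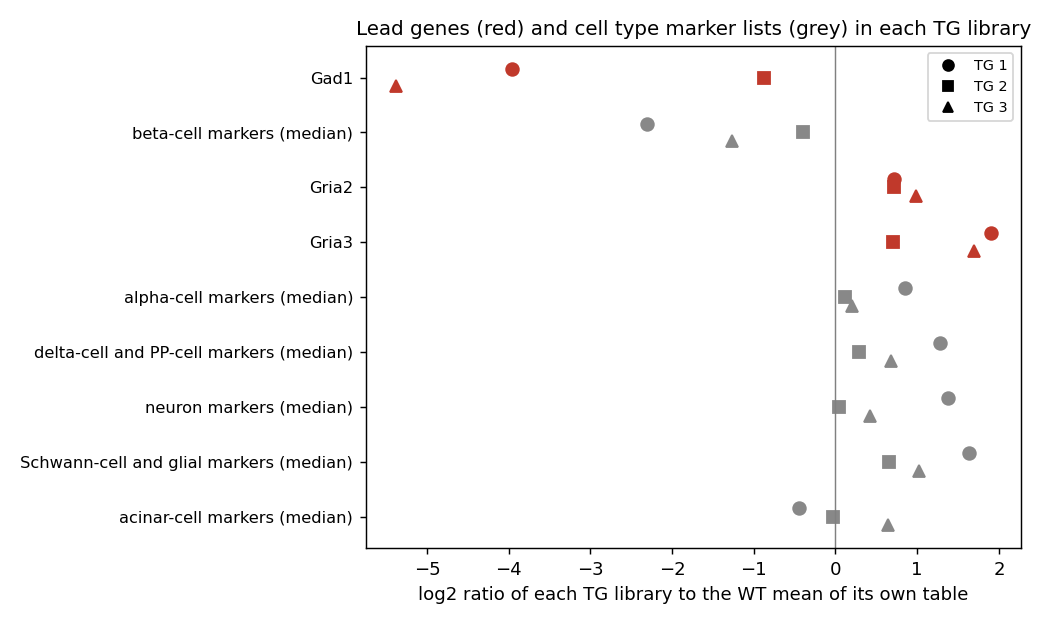
Log2 ratio of each TG library to the WT mean of its own table (x axis, 0.1 CPM added) for 3 genes of the group (red) and for the median of marker lists (grey), with 1 symbol per TG library. Gad1 and the beta-cell markers lie left of 0 in each TG library, and Gria2 and Gria3 lie right of 0 in each, as do the alpha-cell, delta-cell and PP-cell, neuron and Schwann-cell medians.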

How the data were processed

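Per the submitters' processing notes, CASAVA 1.8 and HISAT2 were used with the mouse build GRCm38 (mm10). Which counter, strand setting and annotation produced the counts is not given in the sources used here. The deposited raw counts, whole numbers per gene, came in 2 tables and were joined on the gene ID. The authors also deposited a normalized signal and FPKM values, scaled separately in each table, per the file headers and the values, and these entered no result. Gene names, types, lengths and coordinates came from the authors' annotated tables, and the 44 genes' coordinates equal those of GENCODE M21 in 39 cases.

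Counts were fitted over all genes with edgeR 4.0.16 under R 4.3.3, after filterByExpr on genotype and TMM scaling, by its quasi-likelihood F-test (legacy deviances) with table and genotype as terms, with Benjamini-Hochberg adjustment over all 16072 tested genes. Each SE was taken as the size of the log2 fold change over the root of its F statistic. The script was tested on simulated data that held no table effect and no outlying library. That test checks the code and does not measure how well the fit finds differences in these libraries. DESeq2 1.42.0, limma-voom (limma 3.58.1), other scaling, filters and left-out libraries were the alternatives. The floor of 3 counts covers counting error only. The closest pair of libraries, TG 2 and WT 1, had a chi-square per degree of freedom of 31.6, above counting noise, so no library was treated as a repeat deposit of another, which does not show that the samples are independent. The genes and lists were chosen with earlier results of these data known. Values per library are given for Gad1, Gad2, the GABA-B subunits, genes with an unadjusted p under 0.05 and the 2 most abundant genes per length in each role, and up to 5 genes of smallest p per pathway list, and some of these genes and sites are not reported here, though the counts and medians include them.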

Additional observations from a re-analysis of the deposited data

How the results depend on the processing

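The number of genes past the adjusted threshold was 0 in each direction in edgeR, 2 higher and 0 lower in DESeq2, and 3 higher and 2 lower in edgeR without the low-count filter, whose bias-adjusted form, added after seeing the data, called 0. With 1 library left out, it ran from 0 to 5 higher and from 0 to 2 lower, the upper values without TG 2, and 0 in both directions without each other library. The number higher at an unadjusted p under 0.05 was 5, or 3 in the first table alone and from 3 to 8 with 1 library left out, and the number lower was 3, or from 2 to 4 with 1 library left out and 1 with the stricter filter, under which Glra1 and Glra4 were not tested. The number with every TG library above the WT libraries of its table was 7, or 4 with the stricter filter and from 7 to 11 with 1 library left out (11 without TG 1), and the number below was 5, or 2 with the stricter filter and from 5 to 6 with 1 library left out. The median log2 fold change stayed above 0, from 0.03 to 0.39. Over the 15 alternatives, the 14 genes gave 206 fitted values, of which 187 kept direction and call, 13 gained a call and 6 changed sign. The changes of sign were Gabbr2 and Grik5 in the first table alone (-0.204 and -0.085), without TG 3 and without WT 3, and with 1 library left out Gabbr2 ran from -0.21 to 0.28 and Grik5 from -0.090 to 0.16. No paired analysis was possible because the labels give the genotypes no shared replicate numbers. Depth limits the untested genes, most of which had under 10 counts per library. With 1 library left out of the second table, the remaining library there is absorbed by the table term, so that setting nearly repeats the first table alone.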
